A study of Mus musculus with 24 samples.

Results

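DN1 thymocytes are the earliest double negative fraction of the thymus, sorted here as CD44 positive and CD25 negative. Of 18193 genes with a probe set of their own on the array, 6040 (33.2%) had a mean signal of 200 or more over the 8 DN1 arrays, and these bright genes are the subject. Each gene was read from 1 probe set, the one with the highest mean over all 24 arrays. The genes nearest to the threshold from above were Mterf2, Rrp8, Hspa4l and Jak3, with mean signals of 200.21, 200.18, 200.12 and 200.07, and those nearest from below were Stard10, Mrps5, Nrde2 and Bod1l, with 199.98, 199.94, 199.92 and 199.91. Together the bright genes carried 50.7% to 53.1% of the summed signal of a DN1 array. Only 1 of their 48320 values lay under a signal of 1, and 6035 of them passed the filter on low values and were tested. The other 5, namely Prtn3, Cd177, Hlf, Kcnk1 and S1pr5, did not pass it, since it goes by the mean of log2 signals over all 24 arrays.

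Signals are MAS5 values of a mouse Affymetrix array. They are linear intensities scaled by the authors so that the trimmed mean of every array is 150. DN1 cells of double mutant IgHμ-TLX1Tg Prkdc Scid/Scid mice (TLX1) and of their Prkdc Scid/Scid counterparts (control) were each collected in 4 pools of 2 to 5 mice. The labels give an age of 6 to 8 weeks and an outbred ICR background for every pool, while the study's methods also include younger mice, and the transgenic line came from the CD1 background. All mice of both genotypes lack functional DNA-PK, so that rearrangement of antigen receptor genes is impaired in all of them. The human TLX1 transgene of the TLX1 mice is driven by the IgHμ promoter, which directs expression chiefly to B cells. By RT-PCR the study also detected its RNA in DN1, DN2 and DN3 thymocytes, at a lower level than in splenic B cells of transgenic mice. Pools 1 and 4 of TLX1 and pools 2 and 4 of control came from females and the rest from males. Pools are the replicates, and their small number limits the precision. The p-values and SE of limma rest on the spread between pools, drawn toward a spread shared by all probe sets tested.

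TLX1 (HOX11) is a homeobox transcription factor that is silent in normal thymocytes and switched on by translocation in some T cell acute lymphoblastic leukaemias. The DN1 gate holds the progenitors that have just entered the thymus, which express Kit and still have the potential to form other blood lineages. Because CD44 is also carried by mature natural killer cells, granulocytes, dendritic cells and mast cells, the gate can hold these cells too, and in a thymus with a block at the pre-TCR they can be a large part of it. In a pool of sorted cells, a change in the number of cells of a type and a change in RNA per cell cannot be told apart.

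Marker genes of several cell types were among the bright genes. Of 17 natural killer cell markers with a probe set, 15 were bright. Gzma, a granzyme of killer lymphocytes, had signals of 7487, 7948, 9915 and 10340 in TLX1 pools 1 to 4 and of 9176, 13035, 6618 and 12590 in control pools. Ncr1, the natural killer receptor NKp46, had signals of 3407, 1887, 3680 and 3280 in TLX1 pools and of 2790, 3558, 1333 and 3883 in control pools. In both genes the genotypes overlapped. At DN2 and DN3 the mean signals of Gzma in a genotype were still 2406.8 to 2817.5, while those of Ncr1 were 4.96 to 11.4. Gzma signal was thus not particular to the fraction with Ncr1. Of 30 T lineage genes 26 were bright, and of 14 markers of innate-like and γδ T cells 12. Of 14 markers of neutrophils and their precursors 10 were bright, and of 15 of mast cells and basophils 6. Of 21 markers of monocytes and macrophages 10 were bright, Lyz2, Csf1r and Tyrobp among them. Itgam, Cd14, Adgre1 and Fcgr1 were among those that were not, with mean signals of 57.6, 40.7, 43.3 and 36.8. None of 7 erythroid markers and none of 16 markers of thymic epithelium, endothelium and stroma reached 200, and of 16 B lineage markers 3 did. Of 18 genes of early thymic progenitors 3 were bright, namely Kit, Hhex and Cd44, while Flt3, Cd34, Lmo2 and Lyl1 had mean signals of 75.6, 45.3, 128 and 129.7.

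The labels describe the sorted cells as lacking CD4, CD8 and CD3. These are proteins of the cell surface, while the array measures RNA. The RNA of Cd3e, a chain of the CD3 complex, was bright. It had signals from 1131 to 2845 in TLX1 and from 1416 to 3572 in control pools. Cd4 was at 4.70 to 15.5 in 6 pools, and at 99.4 in TLX1 pool 2 and 105 in control pool 3. Cd44, used in the sort, had signals from 1268 to 1913 in TLX1 and from 892 to 1805 in control pools, and Il2ra, which encodes CD25, from 523 to 1171 and from 488 to 786. The mouse Tlx1 probe set was at 7.64 to 11.4 in TLX1 and 10.3 to 17.3 in control pools, so it was not a bright gene. The human transgene was not measured here. Prkdc, the gene that carries the Scid mutation, was bright and had signals from 224 to 258 in TLX1 and from 178 to 252 in control pools.

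Some pools stood apart within the genotypes. The first were TLX1 pool 2 together with control pool 3, which lay apart from the other 6 on a principal component that held 57.4% of the variance between the 8 pools. Cd8a, a chain of the CD8 coreceptor, had signals of 73.4, 1789, 149.6 and 98.4 in TLX1 pools 1 to 4 and of 242, 78.5, 1919.5 and 131 in control pools. Rag1, a subunit of the recombinase, had signals of 199, 3192, 46.9 and 127 in TLX1 pools and of 35.5, 75.2, 3769 and 126 in control pools. Ptcra, the pre-TCR α chain, reached 677 and 1296 in this pair of pools and was at 20.8 to 102 in the others. Xrcc6, the Ku70 subunit that binds broken DNA ends together with DNA-PK, had 4631 and 5043 in the pair against 272 to 443 elsewhere. Cd8a, Rag1 and Ptcra are genes of later thymocytes, and each was high in 1 pool of each genotype. The correlation of log2 signals over the bright genes was 0.959 between the pair, and from 0.756 to 0.974 over all pairs of pools.

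Pool 4 of both genotypes stood apart in another way. Psmb7, a β subunit of the proteasome, had signals of 237 in TLX1 pool 4 and 311 in control pool 4, against 1980 to 2963 in the other pools. Psmc4, an ATPase of the same complex, showed the opposite, with 1963 and 2049 in both pools 4 against 291 to 1216. The pattern was seen beyond DN1 too. At DN2 Psmb7 was at 343 and 277 in both pools 4 and at 2461 to 2975 in the others, and at DN3 at 354 and 322 against 2126 to 2725. Fos, an immediate early transcription factor, also differed widely between pools. It was at 684, 229, 559 and 258 in TLX1 and at 875, 1948, 724 and 136 in control pools at DN1, and at 479, 26.6, 670.5 and 66.9 and at 1066, 2222, 484 and 11.6 at DN3. Neutrophil genes differed between pools as well. Ltf, the granule protein lactoferrin, had signals of 1918, 3482, 122.6 and 6068 in TLX1 pools and of 606, 859, 1153 and 400.1 in control pools, so that the lowest and the highest values both lay in the TLX1 group.

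**Figure D1:**
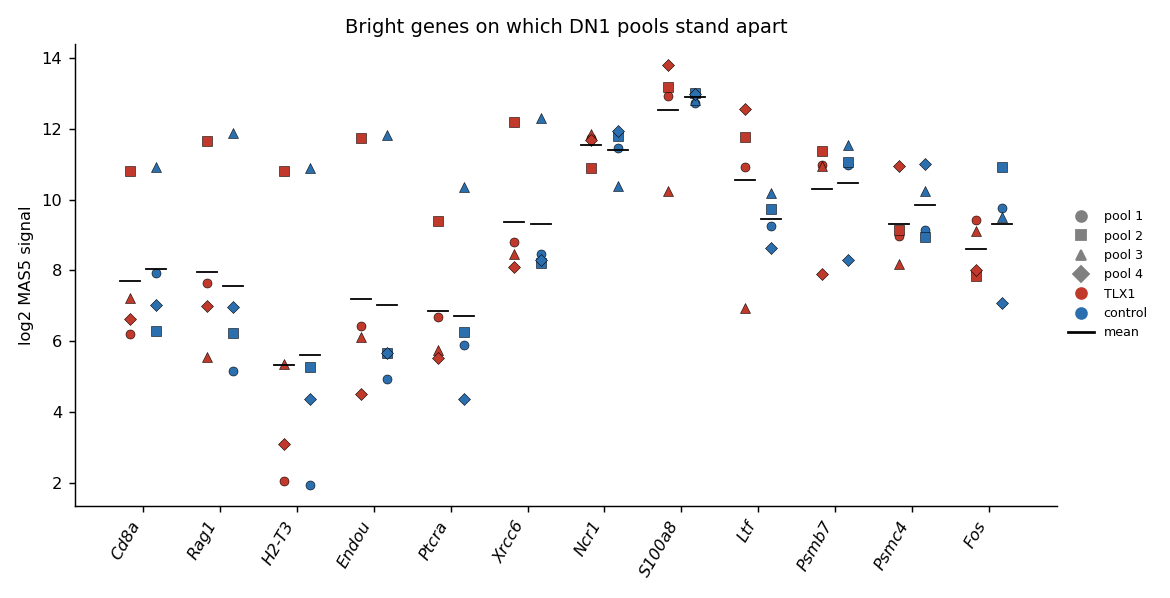
Log2 MAS5 signal (y axis) of 12 bright genes (x axis) in each DN1 pool, with TLX1 pools in red, control pools in blue, the marker shape giving the pool number and the bar the mean of a genotype. TLX1 pool 2 and control pool 3 lie above the other pools on Cd8a, Rag1, H2-T3, Endou, Ptcra and Xrcc6, and both pools 4 lie below them on Psmb7. The 12 were picked with their values known.

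The genes that varied most within a genotype were Eif2s3y, Xist, H2-T3, Endou, Rag1 and Nebl. Eif2s3y and Xist follow sex. Xist, the RNA that coats the inactive X chromosome, had signals of 5024 to 7603 in the 4 female pools and of 21.5 to 44.6 in the 4 male pools, a log2 difference of 7.68 ± 0.31 (SE, adjusted p = 0.000133, limma beside the genotype). Eif2s3y, a Y-linked translation factor, was lower in female pools by a log2 difference of -7.55 ± 0.66 (adjusted p = 0.0188), and these were the 2 bright genes called for sex, where 0.0333% of all probe sets tested were called. At an unadjusted p of 0.05 or less there were 172 bright genes, where 5.69% of all probe sets tested passed. H2-T3 and Endou, which were seen at 1799 and 1893 and at 3422 and 3604 in the pair of pools, did not exceed 40.7 and 85.8 elsewhere. The median SD of a bright gene within a genotype was 0.28 on the log2 scale, and 0.20 without the pair. Over the 5142 genes that were bright at all stages the median SD of DN1 was 0.26, that of DN2 0.19 and that of DN3 0.19.

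Against this spread, no bright gene was called different between TLX1 and control DN1 thymocytes. The moderated test of limma, adjusted over all 27022 probe sets tested, called 0 of 6035 bright genes, and the lowest adjusted p was 0.99995. It called 1 of all probe sets tested (0.00370%), which was that of no bright gene. At an unadjusted p of at most 0.05 there were 6 bright genes, or 5 higher and 1 lower, where 1.72% of all probe sets tested passed. With a fold change of 1.4 or more in addition, as the study's methods set it, 4 bright genes were higher in TLX1 (0.914% of all probe sets tested) and 0 were lower (0.622%). By fold change alone 55 were higher by at least 1.4-fold (5.40%) and 8 lower (3.80%). The median log2 fold change of the bright genes was -0.00, with 2948 of 6035 above 0.

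The precision of the fit was as follows. Because limma draws the spread of each gene toward a shared one, genes with steady pools have a larger SE and p than their own pools give. Bptf, for example, had an SD of 0.03 within a genotype and an SE of 0.14. The 95% interval of the fold change lay between a 2-fold decrease and a 2-fold increase for 5286 of the bright genes (87.6%), and between a 1.4-fold decrease and a 1.4-fold increase for 1510 (25.02%). Of the 20987 other probe sets these shares were 60.4% and 6.89%.

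**Figure D2:**
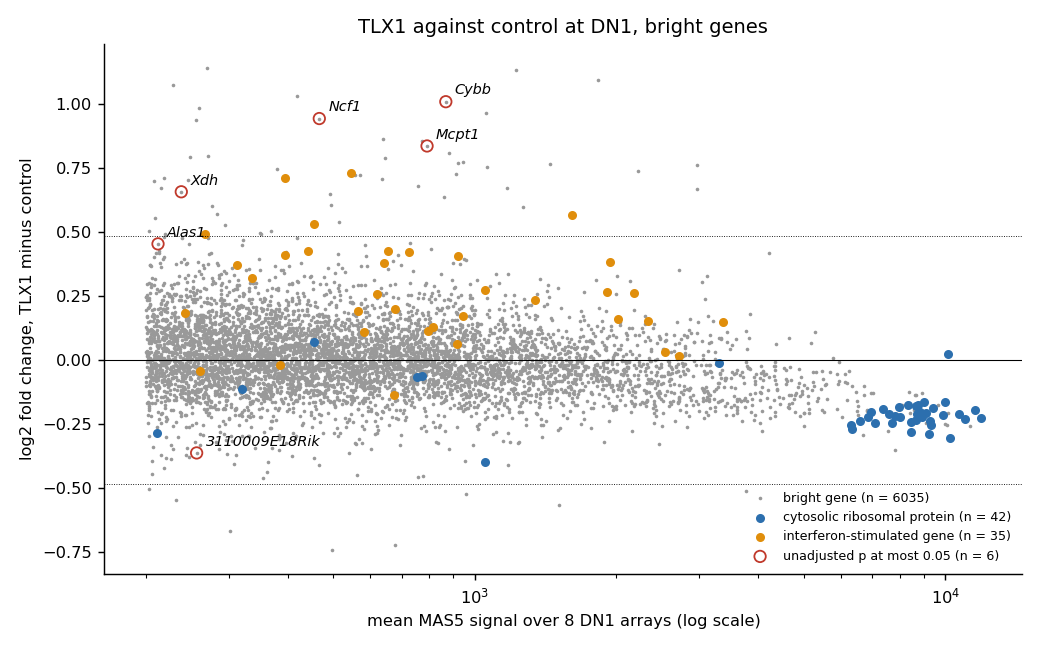
Log2 fold change of TLX1 against control DN1 thymocytes (y axis) against the mean MAS5 signal over the 8 DN1 arrays (x axis, log scale) for the 6035 bright genes tested, with dotted lines at a 1.4-fold change. The 6 genes at an unadjusted p of at most 0.05 are circled, the 42 cytosolic ribosomal protein genes lie mostly at the bright end below 0, and 32 of 35 interferon-stimulated genes lie above 0.

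The 4 genes past these thresholds with limma's p were Mcpt1, Cybb, Ncf1 and Xdh. With the p of the methods' unpaired t-test 0 bright genes passed. Mcpt1, a mast cell protease, had signals of 1576, 885, 1014 and 621 in TLX1 pools 1 to 4 and of 571, 704, 354 and 607 in control pools. Its log2 fold change was 0.84 ± 0.32 (SE), or 1.78-fold, with an unadjusted p of 0.031 from limma and an adjusted p of 0.99995. Only TLX1 pool 4 fell within the range of the control pools.

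Cybb and Ncf1 encode the membrane catalytic chain and a cytosolic subunit of the phagocyte NADPH oxidase, which makes superoxide. Cybb had signals of 716, 1054, 566 and 2549 in TLX1 pools and of 625, 497, 398 and 537 in control pools, with a log2 fold change of 1.01 ± 0.44. Ncf1 had signals of 552, 618, 253 and 1140.4 in TLX1 pools and of 284, 326, 322 and 242 in control pools, with a log2 fold change of 0.94 ± 0.41. In both, TLX1 pool 3 lay within the control range and TLX1 pool 4 was the highest. Of the other subunits of the oxidase, Cyba and Ncf4 had log2 fold changes of 0.11 ± 0.27 and 0.15 ± 0.35. The summed signal of the 14 neutrophil markers was 31232, 41240, 3276 and 66700 in TLX1 pools and 19770, 25127, 23548 and 18159 in control pools, so that it was highest in TLX1 pool 4 too. The sum was the lowest of all pools in TLX1 pool 3. There Cybb lay above control pools 2, 3 and 4, while Ncf1 lay below control pools 1, 2 and 3. The part of neutrophils in the difference was not tested.

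Xdh, xanthine dehydrogenase of purine breakdown, had signals of 262, 208, 311 and 379.6 in TLX1 pools and of 193, 229, 117 and 202 in control pools. Its log2 fold change was 0.66 ± 0.27 with all pools, and 0.60 without the pair of pools that stood apart, at unadjusted p of 0.0404 and 0.0208. The remaining 2 bright genes at an unadjusted p of at most 0.05 changed by less than 1.4-fold. Alas1, the first enzyme of haem synthesis, had a log2 fold change of 0.45 ± 0.18, and 3110009E18Rik, of unknown function, one of -0.36 ± 0.15.

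Below these thresholds, the bright genes with the next smallest p among those at least 1.4-fold higher were Plbd1, Rsad2, Ifit1, Gsn, D2hgdh, Ceacam1, Alox5ap and Mcpt2, with unadjusted p from 0.0546 to 0.0984. Plbd1 is a granule phospholipase B-like protein, Alox5ap activates 5-lipoxygenase for leukotriene synthesis, and Ceacam1 is an adhesion receptor that granulocytes carry. In all 3 of these the highest value was that of TLX1 pool 4, at 1297, 2655 and 835. Mcpt2, a second mast cell protease, had signals of 1585, 1164, 1215 and 692 in TLX1 and of 881, 1078, 306 and 624 in control pools. Gsn, the actin-severing protein gelsolin, and D2hgdh, a mitochondrial dehydrogenase of 2-hydroxyglutarate, had log2 fold changes of 0.60 ± 0.31 and 0.49 ± 0.25. Every one of the 8 overlapped between the genotypes.

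The 8 bright genes that were at least 1.4-fold lower in TLX1 pools had unadjusted p from 0.0752 to 0.477. Zswim8, a ubiquitin ligase adaptor of microRNA decay, had signals of 202, 149.7, 249 and 149.6 in TLX1 pools and of 329, 358, 195 and 224 in control pools, with a log2 fold change of -0.55 ± 0.27. Erdr1 had signals of 2029, 2812, 4236 and 3456 in TLX1 and of 5099, 2967, 4865 and 4699.8 in control pools. Every TLX1 pool thus lay below control pools 1, 3 and 4, and control pool 2 lay within the TLX1 range. Zfas1, the host transcript of small nucleolar RNAs, had a log2 fold change of -0.57 ± 0.33, and Golm2 one of -0.50 ± 0.47, and in both control pool 3 was the highest. The 4 others, Ccl6, Fos, Psmc4 and Mcpt8, had SE of 0.55 to 1.00.

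**Figure D3:**
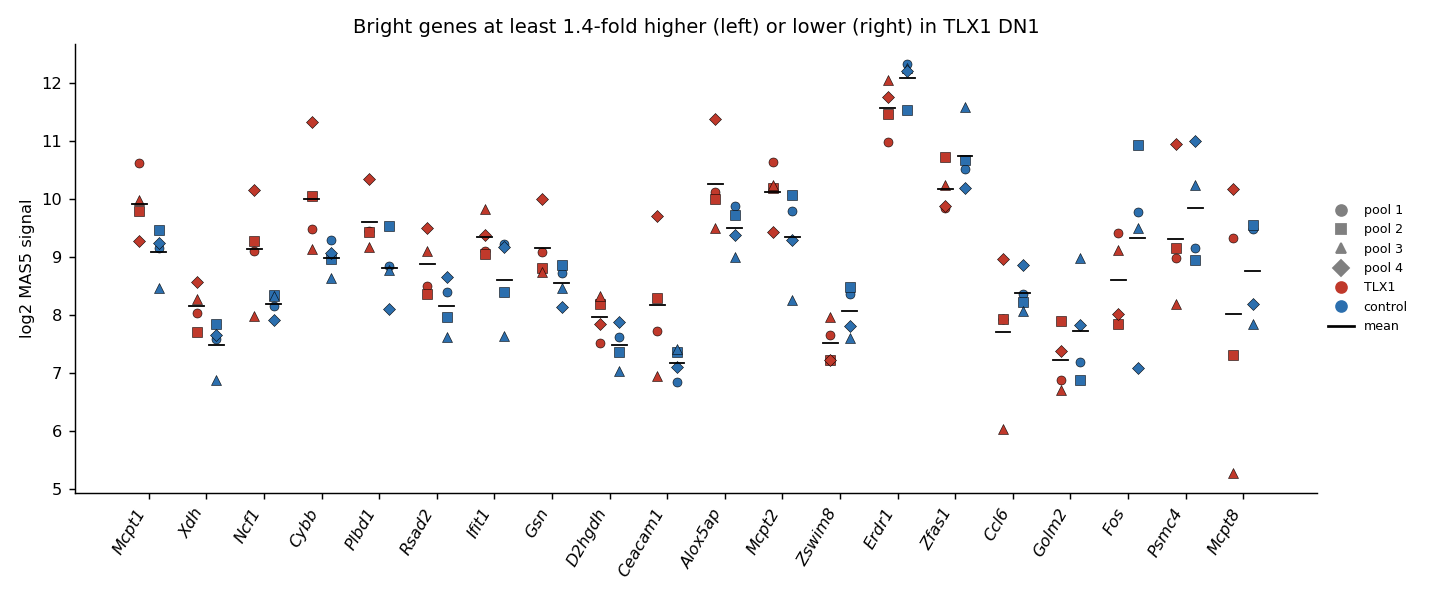
Log2 MAS5 signal (y axis) in each DN1 pool of the 12 bright genes with the smallest p among those at least 1.4-fold higher in TLX1 (left) and of the 8 that were at least 1.4-fold lower (right). Red marks TLX1, blue control, the shape the pool number and the bar the mean of a genotype. In all 20 genes the pools of the 2 genotypes overlap.

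In some genes the genotypes did not overlap. In 17 of the 6035 bright genes every TLX1 pool lay above every control pool, and in 17 every TLX1 pool lay below. Of all 27022 probe sets tested 0.725% and 0.529% did so, which are larger shares than among the bright genes. Sqstm1, the autophagy receptor p62, had signals of 608, 549, 589 and 508 in TLX1 pools and of 425, 404, 454 and 498 in control pools, a log2 fold change of 0.34 ± 0.15. Phf6, an X-linked tumour suppressor of T cell leukaemia, had signals of 229, 216, 214 and 243 in TLX1 pools and of 271, 294, 260.3 and 301 in control pools, a log2 fold change of -0.32 ± 0.15. The largest of the 34 by fold change were Nadk, a kinase that makes NADP, at 0.37, and 3110009E18Rik at -0.36, so that none reached 1.4-fold. Among the 17 lower genes were Ndufa12 and Atp5h of the respiratory chain and ATP synthase, Nop10 of small nucleolar ribonucleoproteins, Srp14 of the signal recognition particle and Orc4 of the origin recognition complex.

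Interferon-stimulated genes encode antiviral effectors and are switched on together by the ISGF3 complex, which binds the interferon-stimulated response element in their promoters. Of 47 such genes with a probe set 35 were bright and tested, and 32 of the 35 had a log2 fold change above 0, with a median of 0.26 beside -0.00 over all bright genes. None of them passed an unadjusted p of 0.05. Rsad2, the antiviral protein viperin, had signals of 364, 329, 552 and 727 in TLX1 pools and of 339, 250.4, 198 and 402 in control pools, a log2 fold change of 0.71 ± 0.32 (unadjusted p = 0.0579, limma). Ifit1, which binds viral RNA, had signals of 548, 528, 909 and 664 in TLX1 pools and of 596, 336, 200.0 and 573 in control pools, a log2 fold change of 0.73 ± 0.37. Control pool 3 was the lowest pool in both. Ifih1, a sensor of double-stranded RNA, and Irf7, which amplifies the response, had log2 fold changes of 0.42 ± 0.26 and 0.42 ± 0.36, and the 3 members at or below 0 were Bst2, Gbp3 and Adar. The summed signal of the list was 33665 to 45048 in TLX1 pools and 25016 to 40054 in control pools. Without control pool 3 the median of the list was 0.05, with 19 of 35 above 0, and without the pair of pools it was 0.12, with 28 of 35 above 0.

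The response element is shown for 3 of the 11 bright members found to hold it within 250 bases before the start, chosen for their large fold changes. Bst2 and Gbp3, at -0.04 and -0.14, hold 2 matches each as well. The letters searched were GAAA, 2 bases of any kind and GAAA, on either strand, read from the RefSeq promoter table of GRCm38.p6. Capitals mark the matches, which here lie on the strand opposite to the gene, so that they read as TTTC on both sides of 2 bases. The stretches are chr12:26456538-26456597 on the minus strand for Rsad2, and chr19:34640760-34640838 and chr19:34583348-34583441 on the plus strand for Ifit1 and Ifit3.
Rsad2: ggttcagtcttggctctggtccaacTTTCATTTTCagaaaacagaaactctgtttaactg
Ifit1: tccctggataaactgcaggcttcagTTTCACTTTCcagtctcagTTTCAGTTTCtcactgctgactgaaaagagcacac
Ifit3: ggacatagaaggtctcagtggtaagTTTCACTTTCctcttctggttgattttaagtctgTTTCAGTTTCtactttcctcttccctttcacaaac
Rsad2 holds 1 match, 120 bases before the start, and Ifit1 and Ifit3 hold 2 each. The letters were found in the promoters of 11 of the 26 bright interferon-stimulated genes in the table (42.3%), in 169 of 5002 bright genes (3.38%) and in 936 of 27025 genes of the table (3.46%). The 169 bright genes with the letters had a median log2 fold change of 0.03, with 98 above 0, and the 4828 tested bright genes without them one of -0.01, with 2336 above 0.

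Genes of dividing cells were highest in the pair of pools that stood apart. Of 40 mitosis genes 37 were bright, and 35 had a log2 fold change above 0, with a median of 0.17 and none at an unadjusted p of at most 0.05. Top2a, the topoisomerase that untangles chromosomes, had a log2 fold change of 0.31 ± 0.51, and Tpx2, which activates Aurora A at the spindle, one of 0.47 ± 0.57. The summed signal of the list was 27430, 48302, 20037 and 18170 in TLX1 pools and 17100, 24725, 54474 and 13834 in control pools, highest in the pair that held Cd8a and Rag1. The median turned to -0.15 without TLX1 pool 2, with 3 of 37 above 0, and to 0.65 without control pool 3, with all 37 above 0. It was 0.31 without both. For Ccna2, Bub1, Aurka, Chek1, Birc5 and Brca1, regulators of the cell cycle and its checkpoints, the log2 fold changes were 0.03, 0.13, 0.23, 0.00, 0.08 and 0.22 with SE from 0.55 to 0.68. Anapc5, a subunit of the anaphase promoting complex, had signals of 1963, 3261, 1999 and 2091 in TLX1 and of 1981, 2400.4, 3463 and 2328 in control pools, a log2 fold change of -0.13 ± 0.25. The 25 bright genes of that complex and of cohesin had a median of -0.03.

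The brightest genes had small negative fold changes. The 6 brightest were Rpl38, Rps29, Tmsb4x, Rplp2, Rpl13a and Rpl37a, 5 of them ribosomal proteins and Tmsb4x the actin-binding thymosin. Rpl38 had signals of 9474, 10521, 11703 and 11849 in TLX1 pools and of 12231, 15978, 9356 and 14090 in control pools, a log2 fold change of -0.22 ± 0.20. Of 42 bright ribosomal protein genes 2 had a log2 fold change above 0, with a median of -0.21, and of 72 of oxidative phosphorylation 6 did, with a median of -0.15. The medians were lower for brighter genes. The 2246 genes with mean signals of 200 to 400 had a median of 0.02, and the 786 with over 1600 one of -0.07. No ribosomal protein gene and no gene of oxidative phosphorylation passed an unadjusted p of 0.05, and after quantile normalization the ribosomal median was -0.01, with 15 of 42 above 0, and the respiratory one -0.07.

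An index of RNA quality moved with these lists. It compares the control probe sets at the 3' end of Actb and Gapdh with those at the 5' end, as a mean log2 difference, and rises as RNA degrades. It was -0.02, 0.03, 0.07 and 0.15 in TLX1 pools and 0.25, 0.41, 0.04 and 0.33 in control pools. The means were 0.06 ± 0.07 (SD over 4 pools) and 0.26 ± 0.16 (exact permutation test, two-sided, p = 0.0857, where the smallest p with 4 pools against 4 is 0.0286). With the index as a term of the fit the ribosomal median turned to 0.18, the interferon-stimulated median was 0.75 and the mitosis median was -0.78. The median of oxidative phosphorylation was -0.09 with the index, with 20 of 72 above 0, and lay between -0.23 and -0.07 under the 23 alternatives run. The summed signal of the 83 genes of this list was 161060 to 185590 in TLX1 pools and 187700 to 215780 in control pools. These ranges did not overlap but lay close, at 185590 and 187700. Control pool 3, whose index lay within the TLX1 range, had 189650, while the other control pools had an index above that range. The part of the index in the shifts of these lists, that of oxidative phosphorylation included, was not tested.

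**Figure D4:**
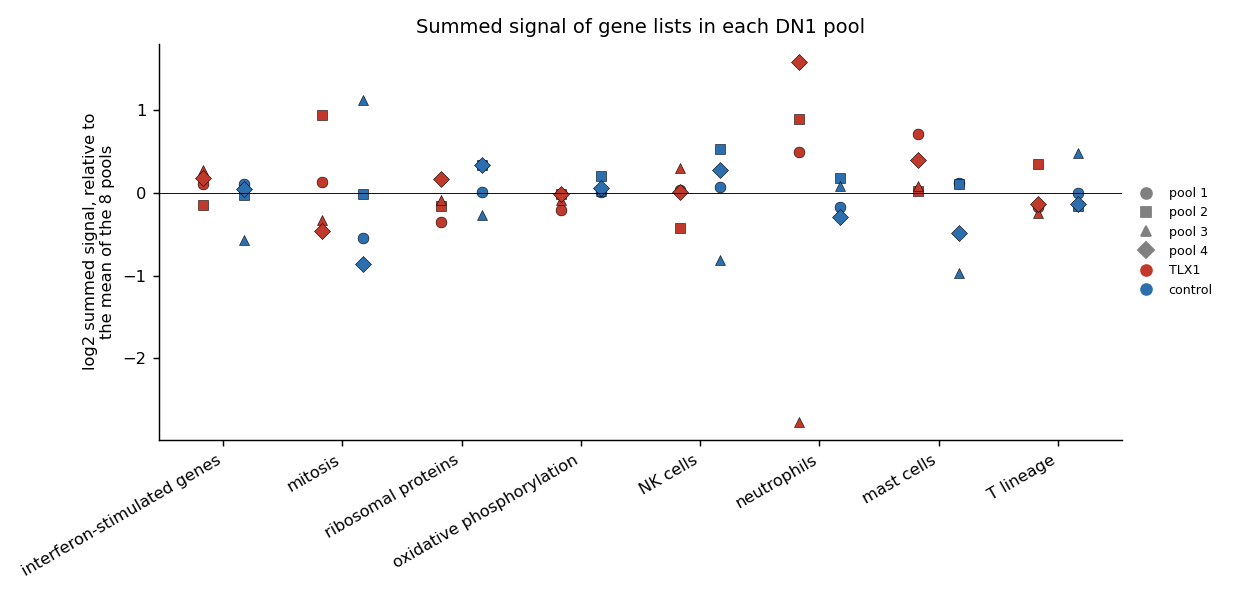
Summed MAS5 signal of all members of 8 gene lists in each DN1 pool, as log2 relative to the mean of the 8 pools (y axis), with TLX1 pools in red, control pools in blue and the shape giving the pool number. TLX1 pool 3 is the lowest and TLX1 pool 4 the highest for neutrophil markers, TLX1 pool 2 and control pool 3 are the highest for mitosis genes, and control pool 3 is the lowest for interferon-stimulated, natural killer and mast cell genes.

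The largest medians were those of markers of other cell types, over few genes. The 9 tested neutrophil genes had a median log2 fold change of 0.65, with 7 above 0. Mpo, the myeloperoxidase of granulocyte precursors, had a log2 fold change of 1.03 ± 0.81, and S100a8, an abundant calcium-binding protein of neutrophils, one of -0.35 ± 0.68. The median turned to -0.08 without TLX1 pool 4, was 1.76 without TLX1 pool 3 and lay at its lowest, -0.25, without pool 4 of both genotypes. The 6 mast cell and basophil genes had a median of 0.62, with 5 above 0 and Mcpt1 at an unadjusted p of at most 0.05. Their median stayed between 0.40 and 0.78 under the 23 alternatives run. Cpa3, the mast cell carboxypeptidase, had signals of 953, 481, 431 and 589 in TLX1 pools and of 568, 483, 319.6 and 298 in control pools. It did not follow the proteases across stages. At DN2 its mean signals were 1528.5 in TLX1 and 1731.2 in control pools, while those of Mcpt1, Mcpt2 and Mcpt4 were 1.16 to 12.5. The signal of Cpa3 is thus not particular to mast cells here. Mcpt8, a protease of basophils, was the one below 0, with signals of 645, 159, 38.9 and 1149 in TLX1 and of 718, 749, 229 and 291 in control pools. Tpsb2 and Tpsab1, the tryptases of connective tissue mast cells, had mean signals of 28.7 and 24.5 and were not bright. The summed signal of the 15 mast cell and basophil markers was 3999 to 6475 in TLX1 and 2016 to 4278 in control pools.

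For natural killer cells the median of the 15 bright markers was 0.07, with 10 above 0, and it was -0.04 without the pair of pools. The 9 dendritic cell genes had a median of 0.25, among them Irf8, which directs the lineage, at 0.25 ± 0.32 and Siglech, a receptor of plasmacytoid dendritic cells, at 0.34 ± 0.32. The 10 monocyte and macrophage genes, Cybb among them, had a median of 0.13, and the 12 of innate-like and γδ T cells one of 0.07. Without the pair of pools these turned to -0.03, with 4 of 10 above 0, and to -0.13, with 3 of 12 above 0. Only 3 genes each were bright for plasma cells, early thymic progenitors and B cells, with medians of 0.35, 0.12 and 0.11, and of 0.29, 0.20 and -0.16 without the pair.

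The 26 bright T lineage genes had a median of -0.01, with 12 above 0. Bcl11b, which seals commitment to the T lineage, had signals of 1579, 2023, 1514 and 2009.9 in TLX1 pools and of 1764, 1600.2, 2147 and 1891 in control pools, a log2 fold change of -0.06 ± 0.18 and a 95% interval from -0.47 to 0.35. Notch1, the receptor that starts the programme, had signals of 1073, 2199.9, 980.1 and 724 in TLX1 and of 863, 754, 2675 and 539 in control pools, again highest in the pair. The 20 bright genes of the Notch pathway had a median of 0.05, and the 26 of T-ALL oncogenes and tumour suppressors one of -0.00, with Phf6 the member of the smallest p. Myc and Myb had log2 fold changes of -0.12 ± 0.25 and 0.20 ± 0.65. Kit, the receptor of early progenitors, had one of 0.10 ± 0.22, and Hhex, a homeobox gene of the same cells, one of 0.31 ± 0.31. Among housekeeping lists the medians were -0.09 for 58 genes of pre-mRNA splicing, -0.08 for 45 of the proteasome, -0.06 for 26 of ribosome biogenesis, -0.05 for 23 chaperones, -0.03 for 27 of ER translocation, -0.03 for 12 of glycolysis, -0.03 for 46 of the actin cytoskeleton and -0.01 for 35 of the lysosome and vacuolar ATPase. They were 0.05 for 38 genes of DNA replication, 0.00 for 18 of DNA end joining and damage response, 0.03 for 21 apoptosis regulators and -0.03 for 23 immediate early genes. For antigen presentation they were -0.08 for 14 genes of MHC class I and 0.04 for 8 of class II.

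**Figure D5:**
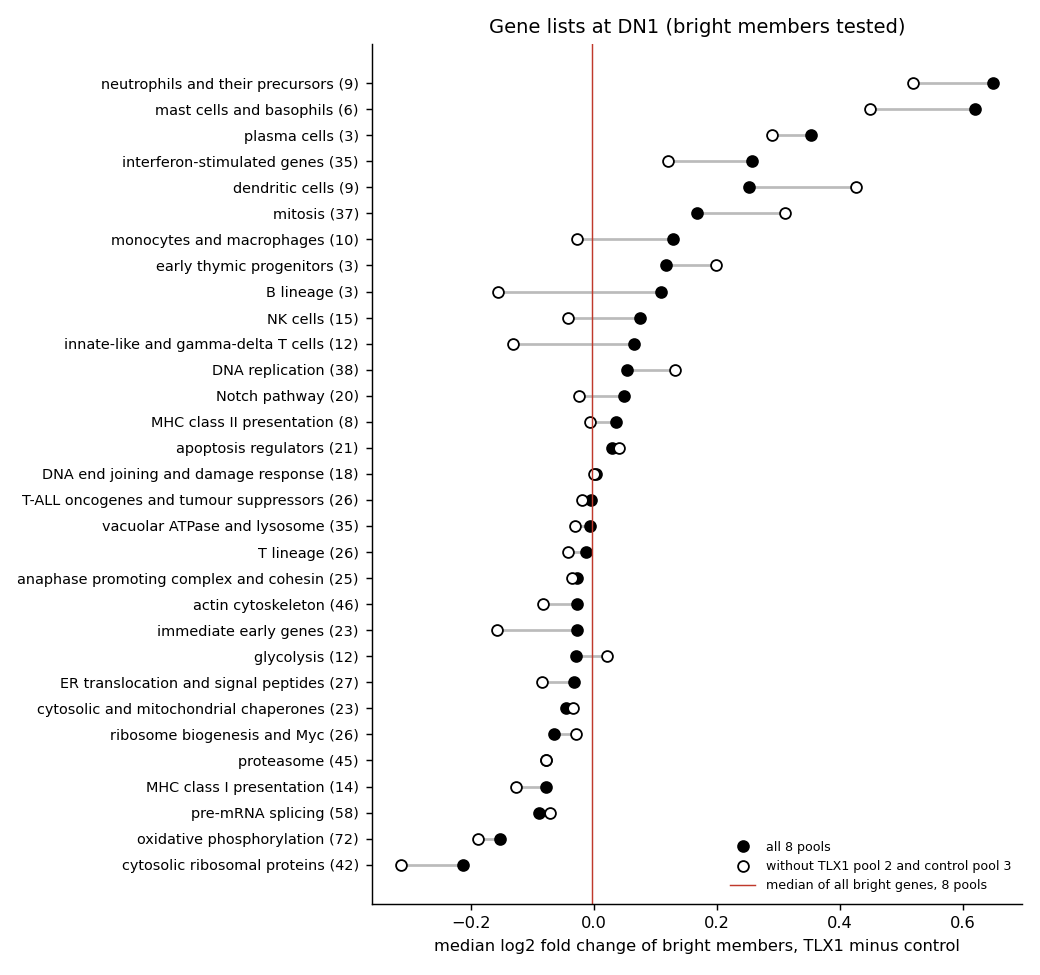
Median log2 fold change of TLX1 against control (x axis) over the bright members tested of 31 gene lists at DN1 (y axis, number of genes in brackets), with all 8 pools (filled) and without TLX1 pool 2 and control pool 3 (open). The red line is the median of all bright genes. The marker lists of neutrophils and mast cells lie farthest above it and ribosomal proteins farthest below it.

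Leaving out TLX1 pool 2 and control pool 3 did not produce calls. Of the bright genes 0 were called, 31 had an unadjusted p of at most 0.05 (3.50% of all probe sets tested), and 13 were higher and 3 lower at the study's thresholds (1.62% and 1.47%). The 3 pools of a genotype did not overlap the other 3 in 181 genes that were higher in TLX1 and 228 that were lower, where 4.34% and 4.10% of all probe sets tested did so. Smallest in p was Ly6d, a surface protein of lymphoid cells, at a log2 fold change of 0.75. It was among the genes of the pair, with signals of 4742 and 4326 there and of 117.5 to 252 elsewhere. Mxd1, a repressor that competes with Myc for Max, and Max itself had log2 fold changes of 0.58 and 0.56 in these 6 pools, and of 0.48 and 0.39 in all 8. Xdh stayed among them. Mcpt1, Ncf1 and Cybb had log2 fold changes of 0.67, 0.94 and 0.88 in the 6 pools, against 0.84, 0.94 and 1.01 in all 8, and unadjusted p of 0.0982, 0.122 and 0.168. The lower genes were St6galnac3, Ppm1h and Csf2, the last of which encodes the cytokine GM-CSF.

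Whether the effect of TLX1 changed from DN1 to the later stages was tested in 1 fit over the 24 arrays, with the pool as a block. The stages come from the same pools, so their fold changes are given side by side. No bright gene was called for DN2 against DN1 or for DN3 against DN1 (0 of 27022 probe sets in either). At an unadjusted p of at most 0.05 there were 80 and 63 bright genes, where 3.60% and 3.23% of all probe sets tested passed. Siglech had the smallest p for DN2, but its signals there were 2.12 to 12.1 in TLX1 and 11.3 to 21.7 in control pools, where it was a dim gene. Its fitted difference of -2.18 ± 0.60 thus sets a bright level at DN1 against dim values at DN2. For DN3 it was Ap2b1, an adaptor of clathrin-coated pits, with 0.04 at DN1, 0.75 at DN3 and a difference of 0.72 ± 0.19. Among the genes higher at DN1, Rsad2 had log2 fold changes of 0.71, 0.69 and 0.52 in the order of the stages, and Ifit1 of 0.73, 0.62 and 0.56. Mcpt1 had 0.84, -0.02 and 0.45, and its signals at DN2 and DN3 lay between 0.39 and 9.88 in every pool. The list medians at DN2 and DN3 were 0.19 and 0.20 for interferon-stimulated genes, -0.19 and -0.32 for ribosomal proteins, and 0.22 and 0.11 for mitosis genes.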

How the data were processed

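RNA of DN1, DN2 and DN3 thymocytes from 8 pools was measured on 24 arrays. The deposited intensity values are linear MAS5 signals, scaled by the authors to a 2% trimmed mean of 150. The submitters' processing notes name Affymetrix Expression Console. The detection flags of the methods are not used here. Median signals of DN1 arrays were 18.8 to 24.3.

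Signals under 1 were set to 1 and log2 transformed. Of 45101 probe sets (64 controls, 34945 with 1 gene, 932 with several, 9160 with none), the 27022 (60%) with the highest mean of log2 signals over all 24 arrays were tested. The lowest of these log2 means corresponds to a signal of 9.02. TLX1 and control were compared with limma 3.58.1 (R 4.3.3), with Benjamini-Hochberg adjustment over all of them and calls at an adjusted p under 0.05. The fit was tested on simulated data, with noise that was independent between pools and capped in SD. Spread as large as that of many genes here, or shared by whole pools, was thus not tried. Symbols follow the platform annotation, and 6032 of the bright genes were matched to RefSeq by their gene number. A few genes are not reported here, and lists cover their other members.

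Genes named are those with the smallest p at 1.4-fold (12 higher and all 8 that were lower), the 6 brightest, the 6 most variable, genes of the sort and the pathway, up to 4 per list (33 lists), and those nearest the threshold. Other genes named were picked with their values known. The members and lists were chosen with earlier results of these data known. Alternatives were quantile normalization, median centring, other filters, an offset of 32, other brightness thresholds, the median of the probe sets of a gene, a variance trend, the 3'/5' index, sex, the replicate number or the pool as a term, array weights, the methods' t-test, and leaving out pools, of which leaving out pool 4 of both genotypes was chosen after seeing the data.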

Additional observations from a re-analysis of the deposited data

Results flagged for a closer look

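In a group of 4 pools, a value was marked where its gap to the nearest other pool, as a share of the whole range, passed Dixon's critical value at 95% confidence. Chance marks about 1 in 20 groups, and 7 of 116 groups were marked here. Some of the genes had been picked from these same values, such as Endou and Nebl for their spread and Erdr1 for its fold change. For such genes the chance rate need not hold. Among control pools these were Endou, highest in pool 3 (0.893 of the range), Nebl, highest in pool 3 (0.837), Hspa4l, highest in pool 3 (0.880), and Erdr1, lowest in pool 2 (0.849). Among TLX1 pools these were Anapc5, highest in pool 2 (0.876), Mterf2, highest in pool 2 (0.841), and Rrp8, lowest in pool 4 (0.925). In 5 of the 7 the pool marked was TLX1 pool 2 or control pool 3.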

How the results depend on the processing

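No bright gene was called for genotype or for the difference between stages under any of the alternatives run. Counts at the study's thresholds (4 higher, 0 lower) were less stable. The number higher was 2 under quantile normalization, 1 with no filter, 6 with an offset of 32, 6 with a variance trend, 30 with the median of the probe sets of a gene, 231 with the RNA index in the fit, 8 with all 24 arrays and the pool as a random block, 44 with array weights, 0 with the methods' t-test, 16 at a mean signal of 100 or more, 13 without TLX1 pool 2 and control pool 3, and 1 to 28 when 1 pool was left out (28 without TLX1 pool 3, 18 without control pool 3). The number lower was 4, 91, 3 and 32 with the median of probe sets, the index, the 24 arrays and array weights, 4 at a mean signal of 100 or more, 3 without the pair, 4 without pool 4 of both genotypes, and 0 to 8 when 1 pool was left out. The causes were not tested. Of the 2 bright genes called for sex, 1 was called with no filter, the median of probe sets, the index, the t-test, without the pair and at a mean signal of 400 or more, 1 or 2 when 1 pool was left out, and 0 with the replicate block. The difference in the RNA index lay between -0.27 and -0.15 when 1 pool was left out, with an exact p of 0.0286 without control pool 3, the smallest possible. The log2 fold change of Mcpt8 turned to 0.016 with the index. It lay between -1.46 (without TLX1 pool 4) and 0.17 (without TLX1 pool 3) when 1 pool was left out. Of the 20 genes followed, the 12 higher with the smallest p and the 8 lower, the other 19 kept their direction throughout. The rest of the 55 genes that were at least 1.4-fold higher were not followed. With the replicate number as a block 4 were higher and 0 lower. The numbers do not pair the pools, since deviations of same-numbered pools correlated at 0.192, -0.436, -0.452 and 0.722.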
